A study of Homo sapiens with 60 samples.

Results

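HT29 cells, a human colorectal adenocarcinoma line, were exposed for 24 h to an ethanol extract of dried ginger (Zingiberis Rhizoma) at 500 µg/mL or at 100 µg/mL, and their mRNA was sequenced. The comparison of these doses used 6 of the series' 60 libraries, 3 at each dose, chosen by the treatment written in the labels. All 6 carry the same sample code set, which holds no vehicle library, so the 100 µg/mL cells are the baseline. The 3 libraries of the same extract at 20 µg/mL, and 3 each of an ethanol extract of fresh ginger (Zingiberis Rhizoma Recens) at 500 µg/mL and 100 µg/mL from the same code set, were used to ask whether a change belonged to the upper 5-fold dose step and to the dried rhizome. The 3 libraries of fresh ginger at 20 µg/mL in that code set were in no comparison. They entered the fit, which held 18 ginger libraries, and so add to the spread behind the p-values. HT29 is a single tumour line grown in serum-containing medium, and nothing in the labels says whether replicates came from separate cultures. The p-values therefore measure the spread between these libraries, which may be technical.

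Ginger rhizome is rich in pungent phenols, the gingerols, which drying converts in part to shogaols. The composition of these extracts is not in the labels. Electrophilic plant compounds are known to release the transcription factor NRF2 from its inhibitor KEAP1. NRF2 then binds antioxidant response elements near genes for glutathione synthesis, NADPH supply and the reduction of reactive carbonyls. Amino acid shortage, haem deficiency or misfolded protein in the endoplasmic reticulum act through kinases of the initiation factor eIF2α. These raise translation of ATF4, which turns on genes of amino acid synthesis, uptake and tRNA charging, a programme called the integrated stress response.

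The 18 ginger libraries held 20317903 to 29428686 counts, so that a level of 1 CPM, the library-scaled count used below, stood for 20 to 29 counts. Colorectal epithelial markers were present in the 6 libraries compared, with EPCAM at 417 to 546 CPM and KRT8 at 5230 to 6400 CPM, whereas CDX1 reached only 0.473 to 1.23 CPM. Summed markers of other cell types came to 11.6 to 11.9 CPM at 500 µg/mL and 7.68 to 12.4 CPM at 100 µg/mL, and CD3E and APOA2 were at 0 in all 6. Replicate 3 at 100 µg/mL stood apart from its 2 mates. Its chi-square per gene against them was 21.9 and 19.7, against 2.8 to 6.88 for the other replicate pairs of ginger, and 330 genes above a mean of 2 log2 CPM lay more than 0.5 log2 units from the mean of its mates, against 22 to 82 genes in the other 17 ginger libraries. Ribosomal protein genes took 6.28% of its counts, the highest share of the 18, and sat a median of 0.16 log2 units above its mates. List counts without this library, where they differ, are given beside the counts of the full fit.

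Promoters of 5 genes that rose at 500 µg/mL are shown because their products stand for the 2 groups of genes described first, NRF2 targets and integrated stress response genes. Each line gives the 250 bases before the transcription start, 5′ to 3′ on the gene's own strand, from RefSeq (GRCh38.p14). Capitals mark a match, on either strand, to the antioxidant response element core TGACNNNGC (reverse complement GCNNNGTCA) in GCLM, TXNRD1 and ME1, and to the amino acid response element form TGATGNAA (reverse complement TTNCATCA) in ASNS and CHAC1. These genes were chosen after their values were seen, and only windows that hold a match are shown. Most genes of these 2 groups with a window had no match, as counted below.
GCLM (chr1:93909431-93909680, minus strand): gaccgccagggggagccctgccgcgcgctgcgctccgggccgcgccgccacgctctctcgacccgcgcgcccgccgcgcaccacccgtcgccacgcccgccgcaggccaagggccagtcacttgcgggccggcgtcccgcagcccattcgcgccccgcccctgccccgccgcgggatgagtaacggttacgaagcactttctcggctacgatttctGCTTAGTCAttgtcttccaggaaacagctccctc
TXNRD1 (chr12:104215529-104215778, plus strand): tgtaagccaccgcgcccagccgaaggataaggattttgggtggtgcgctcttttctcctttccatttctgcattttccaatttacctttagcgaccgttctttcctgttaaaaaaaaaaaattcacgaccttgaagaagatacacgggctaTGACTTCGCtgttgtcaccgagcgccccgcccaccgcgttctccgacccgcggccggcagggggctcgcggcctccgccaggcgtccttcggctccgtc
ME1 (chr6:83431052-83431301, minus strand): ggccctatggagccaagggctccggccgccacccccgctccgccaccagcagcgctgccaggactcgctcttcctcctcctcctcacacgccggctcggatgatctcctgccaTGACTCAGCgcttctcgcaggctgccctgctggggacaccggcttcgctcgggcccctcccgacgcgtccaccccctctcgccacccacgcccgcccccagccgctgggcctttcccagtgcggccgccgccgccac
ASNS (chr7:97872409-97872658, minus strand): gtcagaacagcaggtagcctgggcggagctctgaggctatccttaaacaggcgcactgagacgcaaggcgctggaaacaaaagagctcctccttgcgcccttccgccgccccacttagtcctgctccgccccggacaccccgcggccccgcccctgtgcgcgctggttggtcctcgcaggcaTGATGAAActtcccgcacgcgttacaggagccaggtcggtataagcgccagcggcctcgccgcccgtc
CHAC1 (chr15:40953221-40953470, plus strand): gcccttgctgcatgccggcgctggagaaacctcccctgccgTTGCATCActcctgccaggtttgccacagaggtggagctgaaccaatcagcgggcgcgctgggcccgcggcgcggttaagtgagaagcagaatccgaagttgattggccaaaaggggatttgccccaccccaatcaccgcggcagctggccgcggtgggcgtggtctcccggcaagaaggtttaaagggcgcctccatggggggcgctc

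The matches begin 34 bases before the start in GCLM, 99 in TXNRD1, 137 in ME1, 68 in ASNS and 209 in CHAC1. The antioxidant core was present in 10.9% of the 35116 windows in the RefSeq table. Of the 19 NRF2 targets with a window, 6 held it, against 16.0% of the 10443 tested genes with a window. It was in the windows of 20.0% of the 440 genes called higher and 16.1% of the 330 called lower. The amino acid element was in 3.14% of all windows. It was found for 3 of the 14 integrated stress response genes with a window and for 3 of 14 aminoacyl-tRNA synthetases, 1 of 6 serine and one-carbon genes and 1 of 11 amino acid transporters, against 2.38% of tested genes. It was in the windows of 4.55% of the genes called higher and 3.94% of those called lower. A match describes letters only and is not evidence of binding.

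Raising dried ginger from the medium to the high dose changed 1026 of 15788 genes tested, or 6.50%, at an adjusted p under 0.05. Of these, 575 genes (3.64%) were higher at 500 µg/mL and 451 (2.86%) were lower. Most changes were modest: the median absolute log2 fold change of the called genes was 0.32, and 80 genes, 40 in each direction, passed 1 log2 unit. The lower step, from 20 to 100 µg/mL, is also a 5-fold change, and there 1 gene was called (0.00633%), with 861 genes at an unadjusted p under 0.05 against 3151 at the upper step. The 2 steps share the 100 µg/mL libraries, so the difference between the steps was tested directly. It called 169 genes (1.07%), 117 (0.741%) with a more positive and 52 (0.329%) with a more negative upper step. This test compares log2 changes per 5-fold step. A change that is steady with concentration also gives a larger upper step, so a call does not show a threshold. All 169 were also called, in the same direction, between 500 and 100 µg/mL. The step difference contains that comparison, so the shared direction is largely fixed in advance. In bulk RNA, fewer cells of a type and less RNA per cell cannot be told apart. The counts were sensitive to single libraries: without high-dose replicate 2 the upper step had 649 calls and the step difference 103. Without medium-dose replicate 3 they had 1005 and 130 calls, of which 755 and 93 were among those of the full fit. The set of libraries in the fit lowered the counts further. With 54 libraries of the series the upper step had 541 calls and the step difference 71, and with only the libraries compared 344 and 54.

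**Figure D1:**
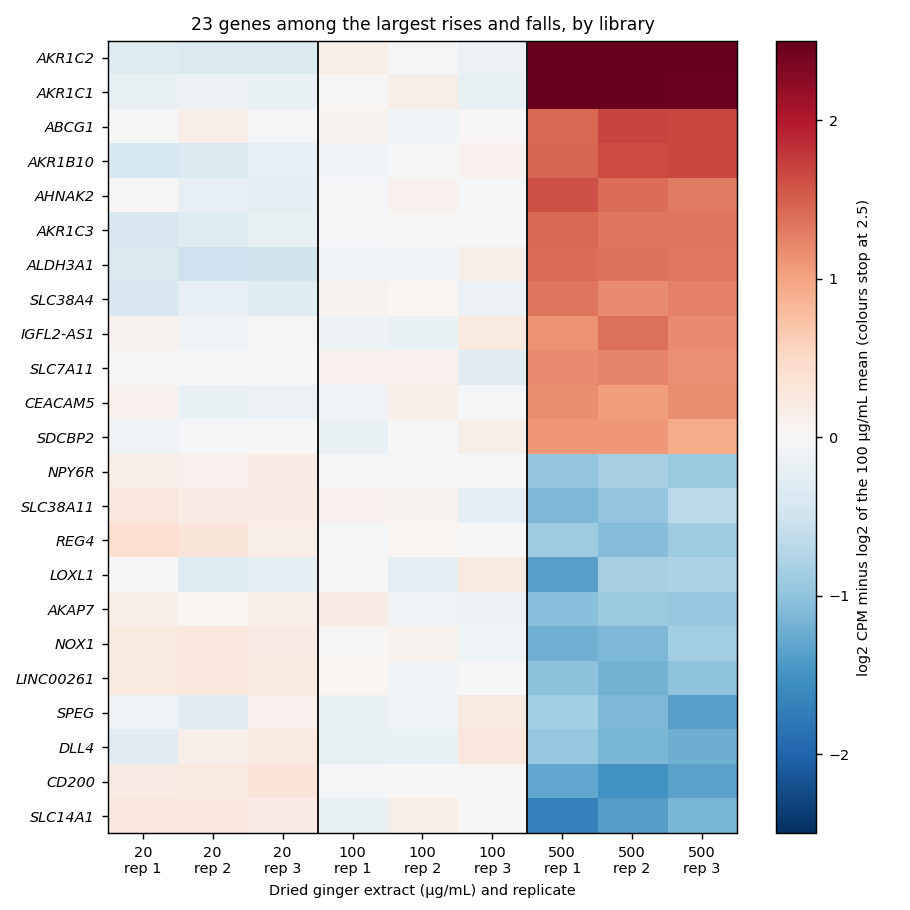
Heat map of the 12 largest rises and 11 of the 12 largest falls between 500 and 100 µg/mL dried ginger. Columns are the 9 dried ginger libraries by concentration, and colour gives log2 CPM minus log2 of the 100 µg/mL mean. All 3 columns at 500 µg/mL are shifted in each row. The 20 and 100 µg/mL columns mostly lie nearer 0, although some genes also differed between them, such as ALDH3A1 (log2 0.46, 100 over 20 µg/mL) and REG4 (-0.29). The genes were picked for 500 and 100 µg/mL groups that did not overlap, which held for 21.4% of all genes tested.

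The aldo-keto reductases, NADPH-dependent enzymes that reduce carbonyls and are among the most NRF2-responsive human genes, held the 2 largest rises among genes above a mean of 2 log2 CPM, AKR1C2 and AKR1C1. AKR1C2 (chr10:4987400-5018031) had 83.7, 88.7 and 80.7 CPM at 500 µg/mL, against 13.2, 11.6 and 10.8 CPM at 100 µg/mL and 9.67, 9.28 and 9.23 CPM at 20 µg/mL. It was 7.09-fold higher at the high than at the medium dose (log2 2.83 ± 0.07, SE; adjusted p = 8.05e-17). Its neighbour AKR1C1 (chr10:4963253-4983283) had 87.8, 85.4 and 84.8 CPM at 500 µg/mL and 15.6, 17 and 13.4 CPM at 100 µg/mL, a log2 fold change of 2.48 ± 0.07 (adjusted p = 1.63e-16). In both genes the lowest high-dose library stood several times above the highest medium-dose library, while the medium and low doses lay closer together. From 20 to 100 µg/mL the log2 fold change was 0.34 ± 0.08 for AKR1C2 and 0.17 ± 0.08 for AKR1C1, neither called. AKR1C3, in the same cluster, had 200, 186 and 186 CPM at 500 µg/mL against 71.6, 75.7 and 74.1 CPM at 100 µg/mL, and AKR1B10, on chromosome 7, had 336, 382 and 389 CPM at the high dose and 117, 120 and 132 CPM at the medium dose. The AKR1C genes are near-identical in sequence, so how reads were divided among them by the authors' estimation is uncertain, although the cluster as a whole rose. The upper step exceeded the lower step by 2.48 log2 units for AKR1C2, 2.31 for AKR1C1 and 1.26 for AKR1B10, with adjusted p of 2.7e-10, 2.7e-10 and 8.45e-05.

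Gene lists held 558 entries, of which 525 had counts high enough to be tested. The lists were chosen with earlier results of these data known, so their counts and medians describe the members only. For every list count below, the share called over all genes tested was 6.50%, with 3.64% higher and 2.86% lower. Of 28 listed NRF2 targets, all tested, 26 rose at the high dose and none fell, with a median log2 fold change of 0.64 against -0.006 for all genes. The 2 that did not pass, TALDO1 and CBR1, had log2 fold changes of 0.13 and 0.25 with adjusted p of 0.21 and 0.053, and without medium-dose replicate 3 all 28 were called. At the lower step the list's median was 0.12 and none was called, although 25 of the 28 estimates were above 0. The step difference was called for 14 of them, all with the larger rise at the upper step.

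Genes of glutathione synthesis and of thiol and quinone reduction were among the NRF2 targets that rose. SLC7A11, the cystine importer, had 362, 371 and 351 CPM at 500 µg/mL and 173, 172 and 134 CPM at 100 µg/mL (log2 1.18 ± 0.08, adjusted p = 2.61e-08). At 20 µg/mL it had 156, 161 and 160 CPM, so the medium dose overlapped the low dose. GCLC, the catalytic subunit of glutamate-cysteine ligase, had 151, 150 and 144 CPM at the high dose and 85.2, 90.3 and 82.6 CPM at the medium dose. GCLM, its modifier subunit, had 119, 120 and 123 CPM at the high dose. At the medium dose it had 76.7, 76 and 51.4 CPM, the low value being replicate 3, and the log2 fold change was 0.82 ± 0.11. Thioredoxin reductase TXNRD1 had 585, 614 and 593 CPM at the high dose and 399, 402 and 358 CPM at the medium dose, and the quinone reductase NQO1 had 917, 871 and 911 CPM at the high dose and 578, 580 and 510 CPM at the medium dose. For each of these genes the high- and medium-dose libraries did not overlap, which was also so, in the higher direction, for 11.2% of all genes tested.

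ME1, cytosolic malic enzyme and a source of NADPH, had 148, 150 and 152 CPM at 500 µg/mL and 102, 100 and 82.8 CPM at 100 µg/mL. FTH1, the heavy chain of ferritin, had 6300, 6200 and 6480 CPM at the high dose and 4050, 4050 and 5280 CPM at the medium dose, where replicate 3 was the highest. Ferritin reads can be shared with many processed pseudogenes. In the haem and iron list 6 of 13 genes rose and 1 fell. Among the 6, HMOX1, FTH1 and FTL are also in the NRF2 list. HMOX1, which breaks down haem, had 18.1, 16.8 and 17.6 CPM at the high dose against 11.4, 9.13 and 9.73 CPM at the medium dose, and FECH, the last enzyme of haem synthesis, rose by 0.45 ± 0.06 log2 units. The iron exporter SLC40A1 was the gene that fell, by 0.22 ± 0.05 log2 units.

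Genes under the aryl hydrocarbon receptor, a sensor of aromatic ligands, were higher in 6 of 10 tested members, with 2 further members not tested for low counts. NQO1, among the 6, is also in the NRF2 list. ALDH3A1, an aldehyde dehydrogenase, had 72.5, 70.3 and 68.7 CPM at 500 µg/mL, 25.8, 26 and 30.4 CPM at 100 µg/mL and 21.2, 19.1 and 19.3 CPM at 20 µg/mL. It was the single gene called at the lower step (log2 0.46, adjusted p = 0.0147), a call that was lost without low-dose replicate 2 or 3, with 54 libraries and with only the libraries compared. Its upper step of 1.36 ± 0.06 was larger than that lower step (difference 0.90, adjusted p = 0.00013). CYP1B1, a mono-oxygenase, had 76.3, 81.6 and 79.1 CPM at the high dose and 63.3, 64.3 and 61.1 CPM at the medium dose, a small rise of 0.33 ± 0.05. CYP1A1, the best known target of the receptor, was low at both doses but rose: it had 3.21, 2.82 and 3.15 CPM at the high dose and 0.609, 0.555 and 1.08 CPM at the medium dose (log2 2.04 ± 0.25, adjusted p = 1.09e-05). It was named after its values were seen. The receptor's repressor AHRR had a log2 fold change of 0.02 ± 0.11 with adjusted p = 0.95.

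Drug-handling genes outside those lists were higher in 8 of 18 tested members and lower in none, against 9 and 0 without medium-dose replicate 3. UGT1A10, which couples glucuronic acid to phenols in the gut, had 572, 576 and 573 CPM at 500 µg/mL and 406, 420 and 383 CPM at 100 µg/mL. The UGT1A genes share their 3′ exons, so the split between them is uncertain. EPHX1, microsomal epoxide hydrolase, had 144, 151 and 143 CPM at the high dose and 93.2, 95.2 and 104 CPM at the medium dose, and the efflux pump ABCG2 had 134, 134 and 142 CPM at the high dose and 99.1, 105 and 82.9 CPM at the medium dose.

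**Figure D2:**
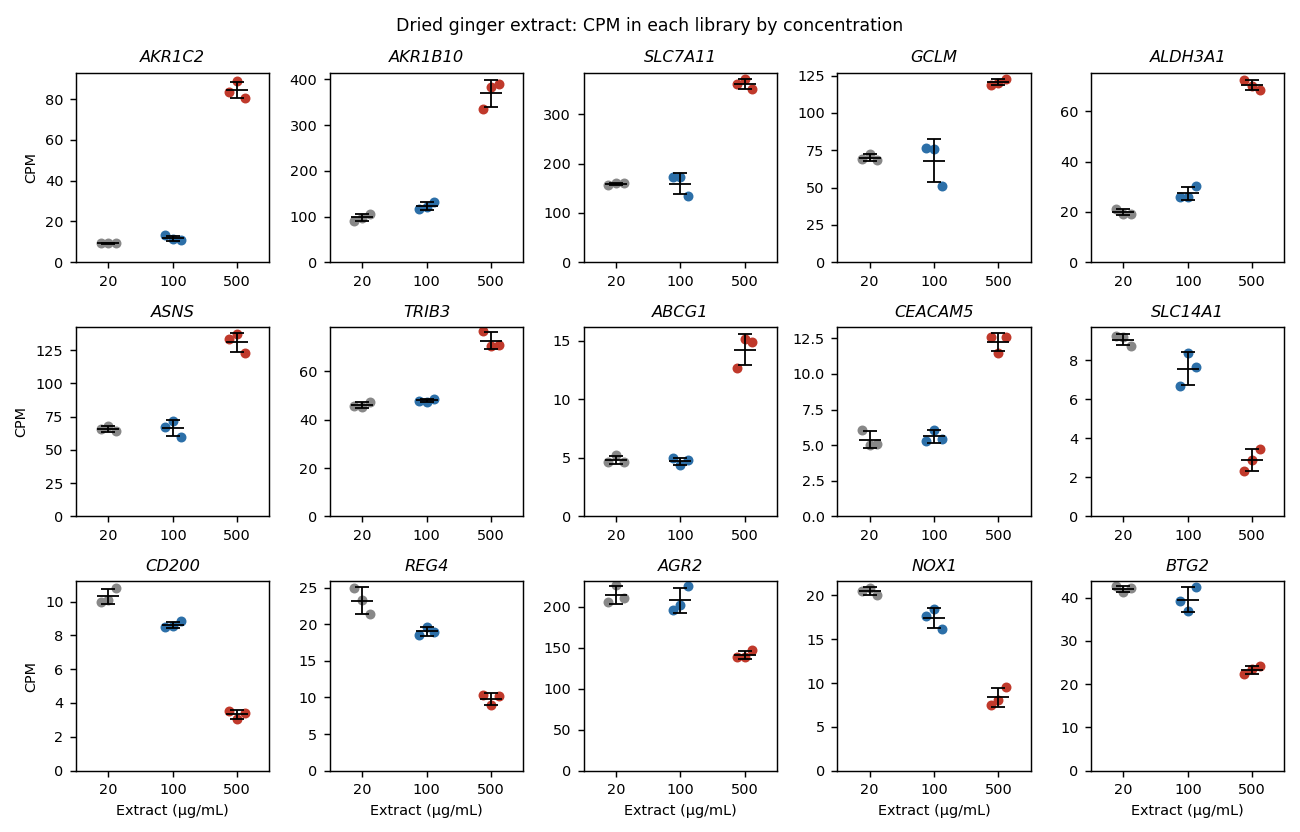
CPM of 15 genes in each dried ginger library (points) at 20, 100 and 500 µg/mL, with mean and SD (bars, n = 3 each); every vertical axis starts at 0. In each panel the 500 µg/mL points lie apart from the 100 µg/mL points, above them for AKR1C2 to CEACAM5 and below them for SLC14A1 to BTG2. The 15 genes were picked from those called, and the 2 groups did not overlap for 21.4% of all genes tested.

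Integrated stress response genes rose at the high dose in 8 of 14 tested members, and none fell, with a median log2 fold change of 0.53 against 0.07 at the lower step. Without medium-dose replicate 3, 10 rose. ASNS, asparagine synthetase, had 133, 137 and 123 CPM at 500 µg/mL, against 67.5, 71.4 and 59.9 CPM at 100 µg/mL and 65.6, 68.3 and 63.9 CPM at 20 µg/mL. Its 2 lower doses overlapped, and the high dose was 1.98-fold above the medium (log2 0.98 ± 0.06, adjusted p = 4.6e-10). TRIB3, a pseudokinase that dampens the response, had 76.6, 70.6 and 70.8 CPM at the high dose and 47.9, 47.3 and 48.7 CPM at the medium dose. SLC3A2, the shared heavy chain of several amino acid transporters, had 234, 238 and 235 CPM at the high dose and 165, 168 and 160 CPM at the medium dose. VLDLR, a lipoprotein receptor under ATF4, had 8.49, 7.97 and 7.8 CPM at the high dose and 4.45, 4.1 and 4.2 CPM at the medium dose. ASNS, TRIB3, SLC3A2 and VLDLR were the 4 members with a called step difference. CHAC1, which degrades glutathione, had 8.45, 6.31 and 6.7 CPM at the high dose and 3.92, 2.74 and 2.87 CPM at the medium dose. ATF4 mRNA itself had a log2 fold change of 0.16 ± 0.07 (adjusted p = 0.19); its activity is controlled mostly by translation, which these data do not measure.

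Gene lists of serine and one-carbon metabolism, amino acid uptake and tRNA charging moved in part. Whether ATF4 drove these changes was not tested. In serine and one-carbon metabolism 4 of 10 genes rose, among them PSAT1, which makes phosphoserine, with 165, 172 and 169 CPM at 500 µg/mL and 111, 107 and 99.4 CPM at 100 µg/mL, and PHGDH, the first enzyme of serine synthesis, up by 0.37 ± 0.06 log2 units. Of 11 amino acid transporters 6 rose, including SLC7A5, the large neutral amino acid carrier (380, 389 and 356 CPM at the high dose and 287, 285 and 312 CPM at the medium dose), and SLC38A2, a glutamine carrier (287, 293 and 280 CPM at the high dose and 223, 221 and 174 CPM at the medium dose). Of 18 cytosolic aminoacyl-tRNA synthetases 9 rose, by small amounts, with WARS up by 0.33 ± 0.04 and GARS by 0.27 ± 0.04 log2 units, and 8 rose without medium-dose replicate 3. No member of these 3 lists fell. UCA1, a long noncoding RNA, was among the 8 genes with the smallest p for a larger upper step, and had 37.6, 38.5 and 37.8 CPM at the high dose and 21.3, 22.5 and 22.2 CPM at the medium dose.

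Endoplasmic reticulum chaperones and unfolded protein response genes rose in 7 of 17 members, all by less than 0.5 log2 units, and in 8 without medium-dose replicate 3. HERPUD1, which helps remove misfolded proteins, had 55.3, 52.9 and 57.9 CPM at 500 µg/mL and 40, 41.2 and 38.8 CPM at 100 µg/mL. HSPA5, the main chaperone of the compartment, had 531, 524 and 524 CPM at the high dose and 434, 448 and 418 CPM at the medium dose. Of 17 cytosolic heat shock genes 4 rose and none fell, and their median was 0.07; without medium-dose replicate 3, 6 rose, while HSP90AA1 lost its call (adjusted p = 0.116). HSPH1 rose by 0.25 ± 0.04 log2 units. HSPA1A, the classic inducible member, had 269, 257 and 254 CPM at the high dose against 220, 233 and 315 CPM at the medium dose, so the groups overlapped (adjusted p = 0.93). Among autophagy and lysosome genes 4 of 24 rose and 1 fell, against 5 and 0 without medium-dose replicate 3. SQSTM1, a cargo receptor that also binds KEAP1, had 809, 762 and 716 CPM at the high dose and 418, 408 and 458 CPM at the medium dose, and the lysosomal protease CTSD had 850, 805 and 798 CPM at the high dose and 610, 592 and 686 CPM at the medium dose.

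**Figure D3:**
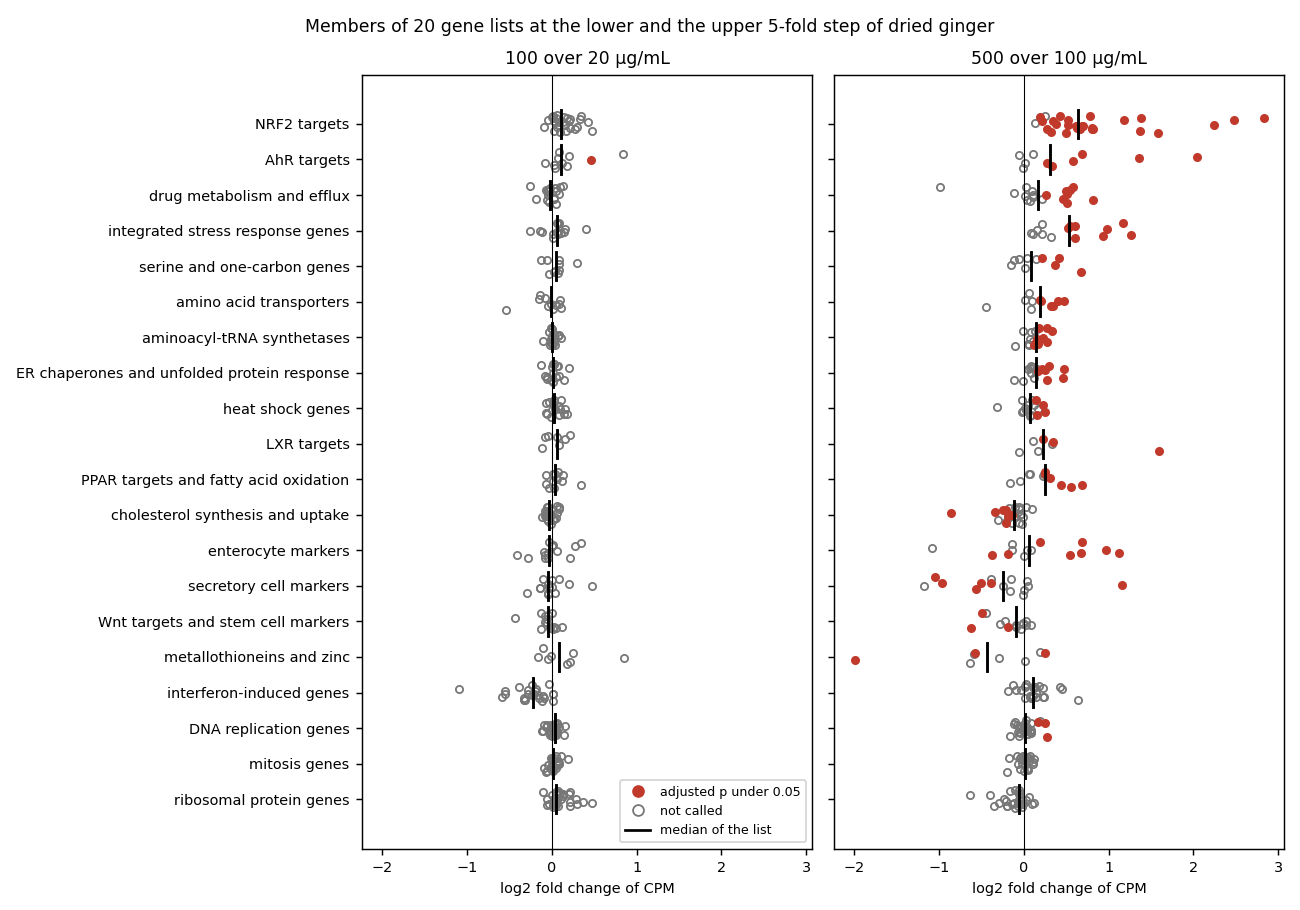
Log2 fold change of each tested member of 20 gene lists at the lower step (100 over 20 µg/mL, left) and the upper step (500 over 100 µg/mL, right) of dried ginger; filled points passed an adjusted p of 0.05 and black bars are list medians. The NRF2 and integrated stress response medians are 0.12 and 0.07 at the lower step and 0.64 and 0.53 at the upper step, and the 2 panels share the 100 µg/mL libraries.

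Lipid genes moved in different directions. ABCG1, a sterol exporter and target of the oxysterol receptor LXR, had 12.7, 15.1 and 14.9 CPM at 500 µg/mL, against 4.98, 4.36 and 4.78 CPM at 100 µg/mL and 4.65, 5.25 and 4.6 CPM at 20 µg/mL. Its upper step was 3.02-fold (log2 1.59 ± 0.12, adjusted p = 6.55e-09), and the lower doses overlapped. Of 7 LXR targets tested 3 rose, MYLIP (0.35 ± 0.07) and NR1H3 (0.23 ± 0.06) besides ABCG1. Without medium-dose replicate 3 there were 4, with LPCAT3 added (adjusted p = 0.00403). NR1H3 lost its call when any of 5 of the 6 libraries was left out. ABCA1 had a log2 fold change of 0.33 ± 0.12 and did not pass (adjusted p = 0.12). In the list of cholesterol synthesis and uptake, 7 of 24 genes fell and none rose, with a median of -0.12, and without medium-dose replicate 3, 10 fell. MVK, mevalonate kinase, had 37.7, 35.3 and 36.9 CPM at the high dose and 44.8, 44.1 and 50.5 CPM at the medium dose.

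Of 12 PPAR targets and fatty acid oxidation genes 6 rose and none fell, against 5 and 0 without medium-dose replicate 3. FABP1, among the 6, is also listed as an enterocyte marker. PLIN2, which coats lipid droplets, had 13, 12.6 and 13.6 CPM at 500 µg/mL and 8.75, 8.91 and 8.9 CPM at 100 µg/mL, and ACSL5, which activates fatty acids, had 316, 327 and 307 CPM at the high dose and 256, 258 and 250 CPM at the medium dose. GPAT3, which starts glycerolipid assembly, was the 1 of 11 triglyceride storage genes that rose, with 28, 30.3 and 31.2 CPM at the high dose and 17.1, 15.8 and 17.3 CPM at the medium dose. The called share of that list, 9.09%, was near the 6.50% of all genes tested, so the list as a whole did not stand out. Of 9 fatty acid synthesis genes SCD and ACSL3 rose, by 0.20 ± 0.04 and 0.19 ± 0.04 log2 units. Without medium-dose replicate 3 there were 2 calls among the triglyceride storage genes, both higher, and the fatty acid synthesis list had 2 higher and 1 lower.

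The largest falls came from genes of varied function. SLC14A1, a urea transporter, had 2.34, 2.91 and 3.45 CPM at 500 µg/mL, 6.7, 8.36 and 7.65 CPM at 100 µg/mL and 9.22, 9.21 and 8.74 CPM at 20 µg/mL (high over medium log2 -1.39 ± 0.13, adjusted p = 1.19e-07). CD200, an immune-inhibitory surface protein, had 3.51, 3.04 and 3.4 CPM at the high dose and 8.49, 8.58 and 8.82 CPM at the medium dose (log2 -1.38 ± 0.09, adjusted p = 1.08e-09). LINC00261, a long noncoding RNA next to FOXA2, had 7.58, 6.85 and 7.7 CPM at the high dose and 16, 14.7 and 15.6 CPM at the medium dose, and NOX1, the colonic NADPH oxidase, had 7.54, 8.01 and 9.59 CPM at the high dose and 17.7, 18.4 and 16.2 CPM at the medium dose. All 4 genes had a called step difference, the fall being larger at the upper step. The same held for BTG2, an antiproliferative gene, with 22.3, 23.4 and 24.2 CPM at the high dose and 39.2, 36.9 and 42.5 CPM at the medium dose, and for CREB3L1, a membrane-bound transcription factor, with 100, 92.1 and 91.5 CPM at the high dose and 155, 148 and 178 CPM at the medium dose. DLL4, a Notch ligand, fell by 1.09 ± 0.15 and AKAP7, a kinase anchor, by 0.97 ± 0.10 log2 units.

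Markers of secretory intestinal cells fell in 5 of 15 tested members and rose in 1, while enterocyte markers rose in 6 of 14 and fell in 2. REG4, a secreted lectin of goblet and endocrine cells, had 10.3, 8.91 and 10.2 CPM at 500 µg/mL, 18.5, 19.6 and 19 CPM at 100 µg/mL and 25, 23.4 and 21.4 CPM at 20 µg/mL. AGR2, a disulfide isomerase needed for mucin folding, had 138, 138 and 147 CPM at the high dose and 196, 202 and 225 CPM at the medium dose, and MUC2, the gel-forming mucin, had 25.4, 25.8 and 26.6 CPM at the high dose and 35.8, 33.1 and 41.5 CPM at the medium dose. ATOH1, the transcription factor of the secretory lineage, had 1.82, 2.64 and 2.05 CPM at the high dose and 3.27, 3.62 and 6.57 CPM at the medium dose, the last being replicate 3; it was named after its values were seen. The member that rose, TFF2, a trefoil peptide, was at or below 1.3 CPM in all 6 libraries, and without medium-dose replicate 3 the counts were 5 lower and 0 higher. Among enterocyte markers KRT20 had 360, 371 and 398 CPM at the high dose and 254, 267 and 255 CPM at the medium dose, and CEACAM5, a surface glycoprotein, had 12.6, 11.5 and 12.6 CPM at the high dose and 5.29, 6.1 and 5.45 CPM at the medium dose. VIL1, the brush-border protein villin, fell by 0.18 ± 0.04 log2 units, so the list did not move in a single direction, and without medium-dose replicate 3 its counts were 4 higher and 3 lower. Of 14 Wnt targets and stem cell markers 3 fell, led by EPHB3 with 15.5, 16.2 and 14.5 CPM at the high dose and 22.9, 20.8 and 27.7 CPM at the medium dose, and none rose.

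The remaining lists differed in their share of called genes, against 6.50% of all genes tested. The share was 37.5% for metallothioneins and zinc, 26.7% for NF-kB and chemokines, 19% for hypoxia and glycolysis and 18.8% for p53 targets. It was 15% for immediate early genes, 12.5% for EGFR ligands and receptors and 10.7% for DNA replication. Tight junction genes and mitochondrial genome transcripts had 7.69% and 6.67%. No member passed among 24 interferon-induced, 24 mitosis, 13 MHC class I and 34 ribosomal protein genes, whose medians were 0.11, 0.01, 0.07 and -0.06. The interferon median at the lower step was -0.22, also with no call. Of 28 DNA replication genes 3 rose, or 2 without medium-dose replicate 3, and only CDC6, which loads the replicative helicase, kept its call with each library left out (98, 98.7 and 104 CPM at 500 µg/mL, 85.8, 81.5 and 79.9 CPM at 100 µg/mL). In the p53 list GDF15, a stress-induced cytokine, rose by 0.53 ± 0.07 while SESN1 fell by 0.45 ± 0.06 log2 units and TP53INP1, which lost its call in 4 of the 6 fits without a library, by 0.67 ± 0.18. Of 15 NF-kB and chemokine genes 3 rose and 1 fell; CXCL8, the neutrophil chemokine, had 7.62, 8.14 and 8.24 CPM at the high dose and 5.02, 5.36 and 5.16 CPM at the medium dose, and LCN2, an iron-withholding defence protein, fell by 0.35 ± 0.07. Of 21 hypoxia and glycolysis genes 3 rose and 1 fell, VEGFA, an angiogenic factor, rising by 0.39 ± 0.05 and CA9, a hypoxia-induced carbonic anhydrase, falling by 0.34 ± 0.05 log2 units. Of 20 immediate early genes 2 rose and 1 fell, of 8 EGFR ligands and receptors 1 fell, and of 13 tight junction genes 1 fell, CLDN1 (log2 -0.32 ± 0.06). Of 8 metallothionein and zinc genes 2 fell and 1 rose; without medium-dose replicate 3, in which this list sat a median of 0.30 log2 units above its mates, 1 fell and none rose. Of 15 mitochondrial genome transcripts MT-CO3 fell, and without that library none was called. Leaving out that library also moved other short counts: to 6 higher and 1 lower in the NF-kB and chemokine list, 5 higher and 1 lower in hypoxia and glycolysis, 2 each way in the p53 list, 1 higher and 0 lower among EGFR ligands and receptors, 3 higher and 1 lower among immediate early genes, and 1 higher in MHC class I.

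The same dose step of fresh ginger gave 72 calls (0.456%), 32 (0.203%) higher and 40 (0.253%) lower, from separate libraries. Of these, 56 were called in the same direction in dried ginger, which is 5.46% of the dried and 77.8% of the fresh calls, and 1 was opposite. For 864 of the 1026 dried calls (84.2%) the fresh estimate had the same sign, and the median ratio of the fresh to the dried log2 fold change was 0.3. The 1026 genes were selected on the dried value, which tends to lower this ratio. The test of the difference, dried minus fresh, called 135 genes (0.855%), 103 (0.652%) more positive and 32 (0.203%) more negative in dried ginger. Of these, 129 were also called in dried ginger itself. For each of the 129 the difference had the direction of the dried change, which is largely fixed in advance because the difference contains that change. Without high-dose dried replicate 2 the test of the difference called 87 genes.

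Among NRF2 targets the fresh step was in the same direction but smaller, with 9 of 28 genes higher and a median of 0.26, and dried minus fresh was called for 11. AKR1C2 had 21.3, 24.9 and 25 CPM at 500 µg/mL fresh ginger and 11.3, 11 and 11.4 CPM at 100 µg/mL, a log2 fold change of 1.08 against 2.83 in dried ginger (difference 1.75, adjusted p = 2.64e-09). Integrated stress response genes had a fresh median of -0.03 with no call, and dried minus fresh was called for 8 of 14. ASNS had 64.2, 61 and 60.2 CPM at 500 µg/mL and 61.2, 66.2 and 58.4 CPM at 100 µg/mL of fresh ginger, so those groups overlapped (difference 0.99, adjusted p = 6.57e-07). ABCG1 had 5.23, 3.88 and 3.94 CPM at 500 µg/mL and 4.9, 4.45 and 3.81 CPM at 100 µg/mL of fresh ginger, with a difference of 1.62 log2 units (adjusted p = 2.49e-05). SLC14A1 fell in both extracts, by 1.39 log2 units in dried and by 0.73 in fresh ginger, and that difference did not pass (adjusted p = 0.073). Genes under the aryl hydrocarbon receptor rose in fresh ginger too, in 5 of 10 tested members, with a median of 0.23 against 0.31 in dried ginger. Dried minus fresh was called for 2 of the 10, ALDH3A1 and NQO1.

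**Figure D4:**
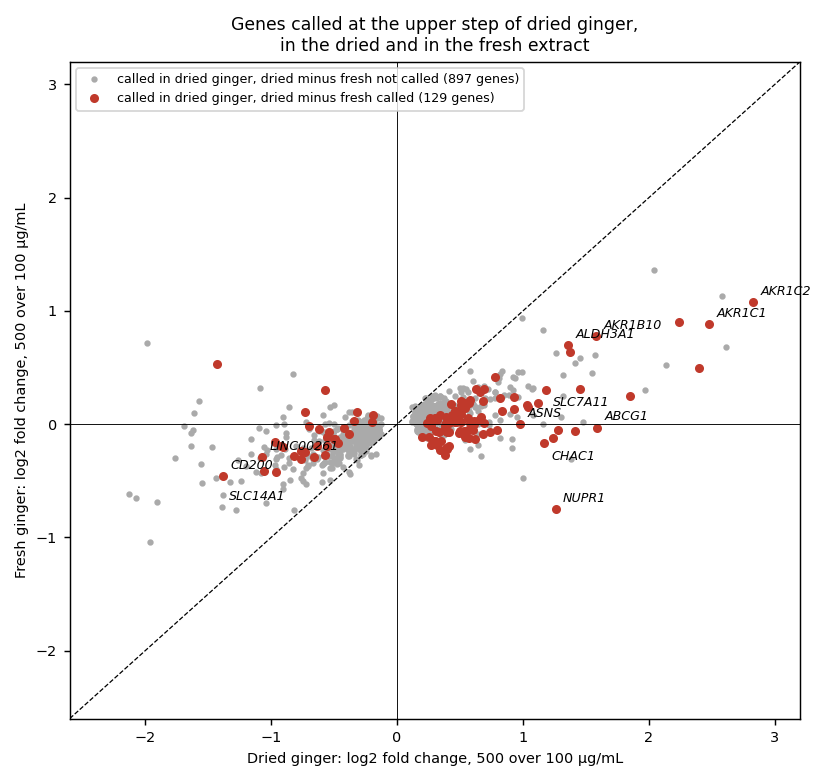
Log2 fold change from 100 to 500 µg/mL in dried ginger (horizontal) and fresh ginger (vertical) for the 1026 genes called in dried ginger, which were selected on the horizontal value; red points (129 genes) also passed the test of dried minus fresh, and the dashed line marks equal change. AKR1C2 and AKR1C1 lie far right and above 0, while ASNS and ABCG1 lie near 0 on the vertical axis.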

How the data were processed

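Per the labels' protocols, total RNA of HT29 cells was made into directional mRNA libraries and read as 100 bp pairs. Per the submitters' processing notes RSEM 1.3.3 and STAR 2.7.3a were used on GRCh38, with Trim Galore 0.6.5 and FastQC 0.11.9. The authors deposited 1 table of RSEM expected counts for 60675 genes, here rounded to whole numbers; strand use in counting is not stated in the labels or notes. The 210 columns of the table that belong to other samples were not used. Symbols and gene coordinates came from GENCODE 29 (GRCh38) for 57055 IDs. The same table gave CPM, computed on TMM-scaled library sizes. The values of EPCAM, KRT8, CDX1, CD3E and APOA2 and the summed markers of other cell types were instead scaled to total counts, without TMM.

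The quasi-likelihood test of edgeR 4.0.16 (R 4.3.3) was fitted to the 18 ginger libraries (6 groups of 3, filterByExpr, TMM, 12 residual degrees of freedom, 15788 genes), with Benjamini-Hochberg adjustment over all of them and a threshold of 0.05. Contrasts were high against medium, medium against low, the difference between these steps, and dried minus fresh. Alternatives were a replicate block, DESeq2 1.42.0 and its size factors, no low-count filter, other library sets, and each library left out. The code was tested on simulated data.

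Members and gene lists (32 lists, 558 entries, 525 tested) were chosen with earlier results of these data known. Named genes had a mean above 2 log2 CPM and were the 12 largest rises and 12 largest falls whose groups did not overlap, up to 8 each way by the step difference, 4 per list and 5 each way by dried minus fresh. Genes outside this rule were named after their values were seen; the intervals shown as ± in log2 units are standard errors. Values of some list members are not reported here.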

Additional observations from a re-analysis of the deposited data

Results flagged for a closer look

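The change from 100 to 500 µg/mL differed between dried and fresh ginger for 135 genes by the test of the difference itself. For AKR1C2 the dried minus fresh difference was 1.75 log2 units and for AKR1C1 it was 1.6. ASNS differed by 0.99, UCA1 by 0.84 and SQSTM1 by 0.71 log2 units, each with the larger rise in dried ginger. CD200 differed by -0.92, LINC00261 by -0.78, AKAP7 by -0.82, BTG2 by -0.53 and TXNIP by -0.39 log2 units, each with the larger fall in dried ginger. No cause of these differences was tested.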

How the results depend on the processing

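The 1026 calls between high and medium dose became 541 with 54 libraries of the series in the fit and 344 with only the libraries compared; leaving out each library gave 649 to 1142. Without a low-count filter 1380 genes were called, 643 higher and 737 lower, and DESeq2 called 1055. Medium against low gave 2 calls with the replicate block, 167 without the filter, 2 in DESeq2, 0 with 54 libraries, 0 with only the libraries compared, and 0 to 3 with each library left out. The step difference gave 574, 71 and 54 calls without the filter, with 54 libraries and with only the libraries compared, and 103 to 194 with each library left out, with 103 without high-dose replicate 2 and 110 without low-dose replicate 3. Dried minus fresh gave 372, 78 and 89 calls under the same 3 settings, and 87 to 188 with each library left out, the lowest without high-dose dried replicate 2. Same-numbered high- and medium-dose libraries had correlations of deviations of 0.053, 0.065 and -0.028, so no strong pairing by number was seen. Over all same-numbered ginger libraries the correlations ran from -0.075 to 0.154, and a weak shared effect cannot be judged from these values. The replicate block gave 1158, 183 and 134 calls for the upper step, the step difference and dried minus fresh. Of 114 named genes called between high and medium, 98 kept the call with each library left out and 80 under every alternative run, and none reversed. The cause of these shifts was not tested. List counts without medium-dose replicate 3 were added after the data were seen. Genes near 1 CPM rest on 20 to 29 counts a library.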

Other observations

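Outside the lists, AHNAK2, a large scaffold protein, had 12.4, 10.7 and 10 CPM at 500 µg/mL dried ginger and 3.88, 4.33 and 3.91 CPM at 100 µg/mL. SLC38A4, an amino acid carrier, had 10.4, 9.4 and 9.84 CPM at the high dose and 4.38, 4.25 and 3.74 CPM at the medium dose. SDCBP2, a PDZ-domain protein, had 13, 13.1 and 11.8 CPM at the high dose and 5.44, 6.25 and 6.82 CPM at the medium dose. IGFL2-AS1, an antisense RNA, had 15.7, 18.6 and 16.3 CPM at the high dose and 6.54, 6.43 and 8.53 CPM at the medium dose; since strand use in counting is not known, its reads cannot be told apart from those of an overlapping gene. In fresh ginger IGFL2-AS1 had 4.84, 5.73 and 5.07 CPM at 500 µg/mL and 6, 4.81 and 6.31 CPM at 100 µg/mL, so those groups overlapped. Among the falls, ITGA1, the integrin subunit that binds collagen, had 54.8, 54.7 and 55.7 CPM at the high dose and 90.2, 89.7 and 80.8 CPM at the medium dose. LMO4, a LIM-domain transcriptional cofactor, had 110, 110 and 111 CPM at the high dose and 160, 164 and 157 CPM at the medium dose.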
